A study of Homo sapiens with 15 samples.

Results

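Untreated CP70, a cisplatin-resistant human ovarian cancer cell line derived from A2780, was set against A2780, its cisplatin-sensitive parent, over all genes. The members were 6 of the 15 arrays in the series, the 3 biological replicates of untreated CP70 and the 3 of A2780, taken by their titles. The arrays were of an Affymetrix design for human transcripts. The other 9 arrays held CP70 after decitabine, after PXD101 or after both drugs, and they entered the fit only to estimate the spread of each gene. Both lines received no drug and were grown in RPMI-1640 medium with glutamine and fetal bovine serum. The labels call each array a biological replicate and do not say whether replicates came from separate passages, so the p-values measure the spread between these cultures. Each line is 1 cell population, and the comparison shows how these 2 populations differ, not how resistant and sensitive cells differ in general.

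Cisplatin enters cells in part through copper transporters and forms crosslinks between neighbouring purines of DNA. Mismatch repair proteins recognise such adducts and signal cell death, nucleotide excision repair removes them, and translesion polymerases copy past them. A line selected under the drug can differ from its parent in these routes and also in the growth factor, developmental and metabolic genes described here. In a bulk RNA measurement, fewer cells with a transcript and less of it per cell cannot be told apart.

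Values are the deposited log2 levels, so a difference of 1 is 2-fold, and each difference is CP70 minus A2780 with its standard error (SE). Each of the 19775 genes is given by 1 probe set. A gene was called where limma's Benjamini-Hochberg adjusted p over these genes was under 0.05. The median of all gene values was 6.28 and the lower quartile was 4.34, and values under that quartile are close to the bottom of the range, so folds against them may be understated. Correlations across genes, which are not independent replicates, were 0.997 between CP70 replicates 1 and 3, and 0.983 and 0.986 between replicate 2 and these arrays. With the 3 arrays of CP70 given PXD101, the correlation of replicate 2 was 0.995 to 0.997. It correlated at 0.958 with each A2780 array, against 0.940 to 0.941 for replicate 1 and 0.942 to 0.943 for replicate 3. Replicate 2 was thus more like CP70 given PXD101 than like the other untreated arrays. With the arrays of CP70 given decitabine, alone or with PXD101, replicate 2 correlated at 0.985 to 0.988. Replicates 1 and 3 correlated with these at 0.975 to 0.984 and at 0.977 to 0.985. Whether replicate 2 or replicates 1 and 3 depart from the usual state of CP70 was not tested. Whether the label of replicate 2 is right was not tested either, so each CP70 mean and SE holds only if it is. The value of replicate 2 is printed where a gene is given by array. The count from replicate 2 as the only CP70 array stands beside the count of each list, for some lists in 1 direction only. The 3′ minus 5′ difference of the actin control probes was 0.86, 0.63 and 0.65 in CP70 and 0.36, 0.38 and 0.34 in A2780, while that of GAPDH was −0.05 to 0.02 on all 6 arrays. The part of these differences in the results was not tested.

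Of all genes tested, 6174 were called (31.2%), 3174 of them higher (16.1%) and 3000 lower (15.2%) in CP70. Rank product, the test of the series' design, called 543 higher (2.75%) and 502 lower (2.54%). The 3 CP70 arrays lay wholly above A2780 for 4083 genes (20.6%) and wholly below for 3499 (17.7%), 7582 together (38.3%). At least 2-fold differences made up 1017 genes higher (5.14%) and 912 lower (4.61%), and at least 8-fold differences 150 higher and 123 lower. Taken singly, replicate 1 lay at least 2-fold above the A2780 mean for 1275 genes (6.45%) and below for 1340 (6.78%). For replicate 3 these numbers were 1264 (6.39%) and 1203 (6.08%), and for replicate 2 only 818 (4.14%) and 658 (3.33%). Replicate 2 was the CP70 array nearest to A2780 for 66.4% of the higher genes and 68.0% of the lower ones. Without replicate 2 the counts were 3637 higher (18.4%) and 3908 lower (19.8%), and 94.4% and 95.4% of the called genes remained called the same way. With replicate 2 as the only CP70 array, 1912 genes were higher (9.67%) and 1457 lower (7.37%), and 50.6% and 44.8% of the called genes remained. In that fit the lone array was assumed to vary like the other groups. Its value also entered the CP70 mean by which genes were called, and the A2780 arrays were the same. The fit is thus no independent check of the called genes or of those changed at least 8-fold. 

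The largest rise was that of XCL1, a chemokine that attracts T and dendritic cells. It stood at 12.68, 11.95 and 12.38 in CP70 replicates 1 to 3 and at 4.25, 4.48 and 4.54 in A2780, a rise of 7.91 ± 0.17 or 241-fold (adjusted p = 2.46e-14). ADAMTS5, a secreted protease of cartilage proteoglycans, was at 11.14, 10.17 and 10.98 in CP70 and at 3.28, 3.10 and 3.35 in A2780 (7.52 ± 0.23, adjusted p = 1.41e-12). For both genes the groups lay far apart, with replicate 2 the lowest CP70 array. ZPLD1, a zona pellucida domain protein, was at 11.45, 11.75 and 11.59 in CP70 and at 3.68, 3.9 and 3.68 in A2780, with replicate 2 the highest of the CP70 arrays. SCG2, a granin of secretory vesicles, rose by 7.04 ± 0.31, and DCLK1, a microtubule-binding kinase, by 6.89 ± 0.30. MECOM, a zinc finger transcription factor, rose by 6.83 ± 0.17, at 10.76, 10.87 and 10.92 in CP70 and at 4.11, 4.09 and 3.86 in A2780. PTPRK, a receptor phosphatase at cell contacts, rose by 6.82 ± 0.09, and SEMA6D, a membrane semaphorin, by 6.84 ± 0.13. ADAMTS1, a relative of ADAMTS5, rose by 6.21 ± 0.18. In NIBAN1 and CD55, replicate 2 lay well below the other CP70 arrays and still far above A2780. NIBAN1, a stress-induced gene, was at 11.01, 8.92 and 11.11 in CP70 and at 3.57, 3.30 and 3.33 in A2780. CD55, a surface inhibitor of complement, was at 11.16, 9.48 and 11.07 in CP70 and at 4.16, 4.57 and 4.41 in A2780. The pseudogene SP3P shares sequence with the transcription factor gene SP3, so its rise of 6.77 ± 0.39 is of uncertain source. One probe set of DCLK1 was near 0, at −0.01, where the other 3 were called, and PTPRK had 1 called and 1 at 0.17.

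**Figure D1:**
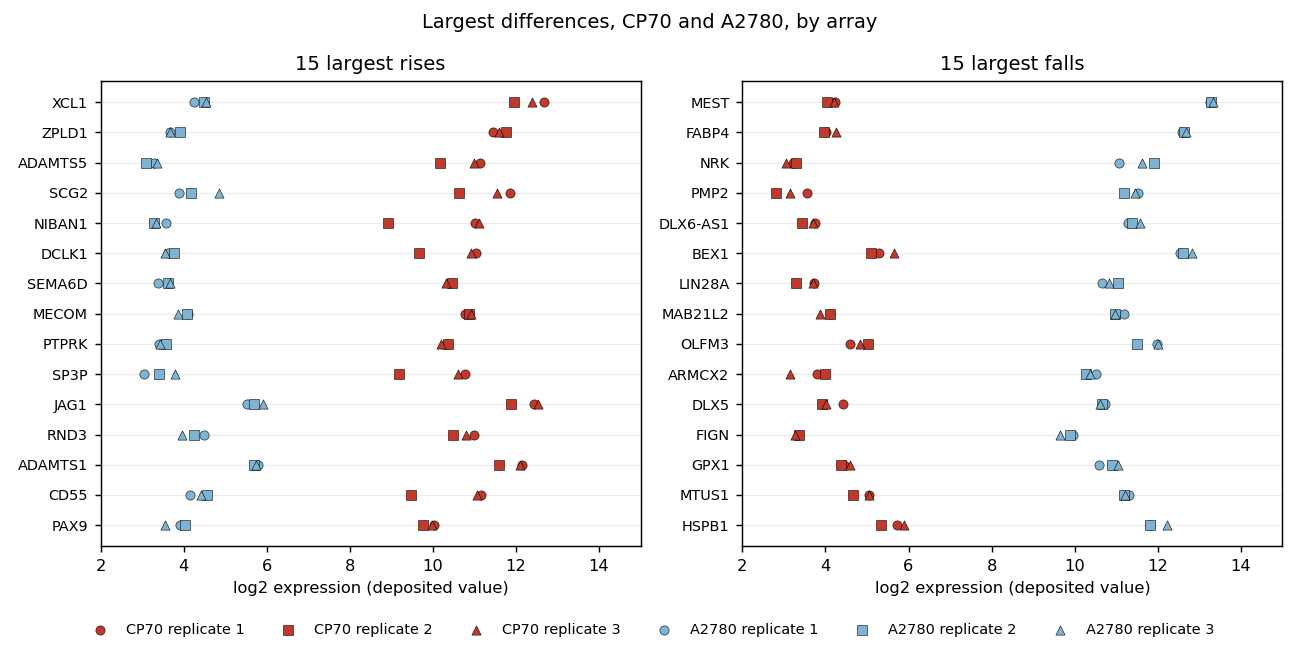
Deposited log2 level of the 15 genes with the largest rises (left) and the 15 with the largest falls (right), by array, with CP70 in red, A2780 in blue and the replicate shown by the marker. The arrays of the 2 lines do not overlap for any of these genes, a condition of the choice, and CP70 replicate 2 (square) lies below its partners in NIBAN1, SP3P and CD55.

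The largest fall was that of MEST, a hydrolase-like gene that is imprinted and expressed from the paternal allele. It stood at 4.23, 4.04 and 4.20 in CP70 and at 13.26, 13.28 and 13.32 in A2780, a fall of 561-fold (−9.13 ± 0.15, adjusted p = 3.5e-15). FABP4, a fatty acid binding protein of fat cells, was at 4.01, 3.96 and 4.25 in CP70 and at 12.59, 12.62 and 12.69 in A2780 (adjusted p = 8.87e-16). PMP2, a fatty acid binding protein of peripheral myelin, fell by 8.21 ± 0.16. Among tested genes, FABP4 and PMP2 lie next to each other, in a run of 6 that were all lower in CP70: ZNF704, PAG1, FABP5, PMP2, FABP4 and IMPA1. Stretches of at least 5 neighbouring tested genes called the same way numbered 12 lower and 25 higher. LIN28A, an RNA-binding protein that blocks maturation of let-7 microRNAs, was at 3.72, 3.28 and 3.70 in CP70 and at 10.66, 11.04 and 10.83 in A2780. HSPB1, a small heat shock protein, was at 5.73, 5.34 and 5.89 in CP70 and at 11.81, 11.81 and 12.21 in A2780, a fall of 78.4-fold (adjusted p = 7.7e-14). BEX1, an adaptor protein of neural tissue, fell by 7.30 ± 0.15, and NRK, a Nik-related kinase, changed by −8.33 ± 0.17. DLX5, a homeobox factor, fell by 6.54 ± 0.16, and DLX6-AS1, a noncoding RNA of the same locus, changed by −7.78 ± 0.14. MAB21L2, OLFM3 and FIGN changed by −7.01 ± 0.21, −7.0 ± 0.16 and −6.51 ± 0.11. MTUS1, a microtubule-associated protein, fell by 6.32 ± 0.20, and ARMCX2 changed by −6.74 ± 0.18. GPX1, the glutathione peroxidase of cytosol that depends on selenium, was at 4.44, 4.37 and 4.60 in CP70 and at 10.59, 10.89 and 11.03 in A2780. In none of these largest falls did the arrays of the 2 lines overlap, which was a condition of the choice.

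The series also contains a drug that lowers DNA methylation, which acts at CpG pairs. The promoters of MEST, which fell, and of JAG1, a Notch ligand that rose by 6.56 ± 0.28, are shown to set their CpG content side by side, with each CpG in capitals. Each is 250 bases before to 50 after the RefSeq start, on the gene's strand of GRCh38.p14. Only 1 window per gene was taken, so other transcript starts of these genes, such as that of the imprinted MEST transcript, were not examined. MEST lies on the plus strand at chr7:130485925-130486224 and JAG1 on the minus strand at chr20:10673950-10674249.
MEST: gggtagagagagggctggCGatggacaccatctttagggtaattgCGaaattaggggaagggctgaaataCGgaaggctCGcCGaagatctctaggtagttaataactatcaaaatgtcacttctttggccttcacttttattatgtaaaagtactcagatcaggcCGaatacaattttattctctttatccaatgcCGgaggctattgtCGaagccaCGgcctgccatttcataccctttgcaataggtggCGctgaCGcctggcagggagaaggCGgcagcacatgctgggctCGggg
JAG1: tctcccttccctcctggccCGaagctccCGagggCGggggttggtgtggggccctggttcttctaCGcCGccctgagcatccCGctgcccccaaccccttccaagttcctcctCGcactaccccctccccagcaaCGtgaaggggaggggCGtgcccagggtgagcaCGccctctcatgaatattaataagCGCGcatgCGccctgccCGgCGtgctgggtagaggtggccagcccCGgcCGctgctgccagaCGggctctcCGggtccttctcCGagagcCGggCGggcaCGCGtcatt
The MEST window holds 13 CG and the JAG1 window 24, against a median of 22 over 15382 gene promoters of this length. The same window held 23 in GPX1, which fell, and 7 in ALDH1A1, which rose. These genes were picked by hand, so whether the CpG count follows the direction of change cannot be read from them. Of all promoters, 66.4% held at least 15. For non-overlapping genes at least 1 log2 higher in CP70, 73.7% of 805 promoters did, and for those at least 1 log2 lower, 69.4% of 708. For the smaller sets that differed by at least 4 log2, the shares were 52.8% of 53 promoters of higher genes and 56.9% of 51 promoters of lower genes. The share thus lay above that of all promoters in the wider sets and below it in the narrower ones, with no test. Methylation was not measured.

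The genes in which CP70 replicate 2 stood farthest from its partners did not all differ in 1 way. In GINS2, a subunit of the replicative helicase complex, CP70 was at 7.40, 9.80 and 7.60 and A2780 at 10.19, 10.21 and 9.83, so that replicate 2 lay next to A2780. SKP2, a ubiquitin ligase subunit that degrades cell cycle inhibitors, was at 8.57, 10.97 and 8.80 in CP70 and at 10.92, 10.87 and 10.74 in A2780. SRSF7, a splicing factor, was at 9.95, 12.17 and 10.02 in CP70 and at 12.32, 12.30 and 12.20 in A2780. In these 3 genes, and in RAB26 and DSCC1, a replication clamp-loader gene, replicate 2 was at or near the A2780 values. In other genes replicate 2 lay between the lines. CALCB, a calcitonin gene-related peptide, was at 11.76, 8.37 and 11.81 in CP70 and at 4.58, 4.25 and 5.50 in A2780. PTGS2, the inducible cyclooxygenase, was at 8.99, 6.10 and 8.80 in CP70 and at 4.16, 4.21 and 4.21 in A2780. HMOX1, the inducible haem oxygenase, was at 11.16, 8.38 and 10.86 in CP70 and at 7.80, 8.19 and 8.44 in A2780, with replicate 2 within the A2780 range. CMPK2, an interferon-inducible mitochondrial kinase, was highest on replicate 2, at 6.37, 8.43 and 6.35 in CP70 and at 4.23, 4.58 and 5.07 in A2780. These genes were picked for the distance of replicate 2 and their values are a description. From replicate 2 alone, the differences of RAB26, SKP2 and DSCC1 were 0.065, 0.129 and 0.015, all above 0.

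**Figure D2:**
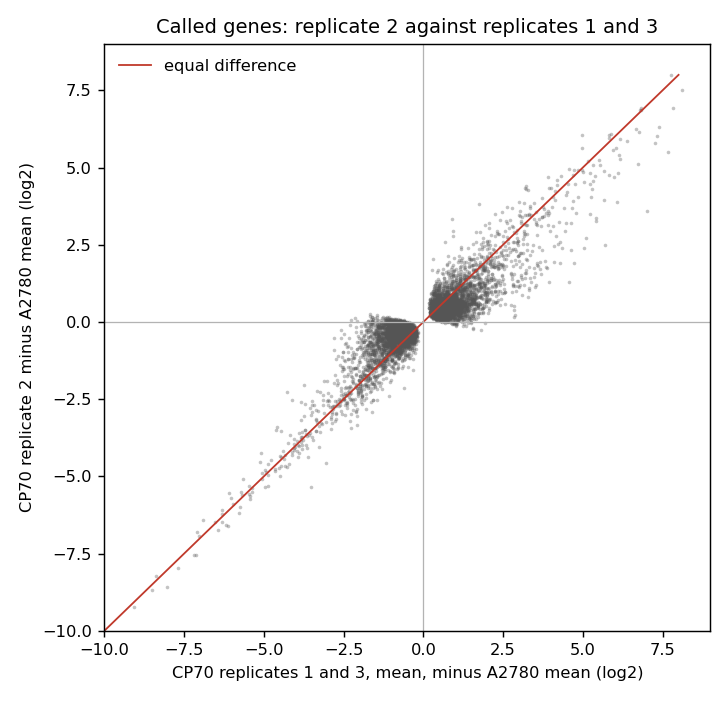
Difference of CP70 replicate 2 from the A2780 mean (vertical axis, log2) against the mean difference of replicates 1 and 3 (horizontal axis, log2), 1 point for each of the 6174 called genes. Replicate 2 was the CP70 array nearest to A2780 for 66.4% of the higher and 68.0% of the lower genes. It lay on the other side of the A2780 mean for 30 of the higher and 107 of the lower genes, the points past the horizontal 0 line.

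The counts of called members of each list below are to be set beside the 16.1% of all genes that were higher and the 15.2% that were lower, and a share near these is no result about the list. These shares are not matched for level. On chromosomes other than 1, 6 and 13, genes above the median level were called more often than all genes there, in both directions. The citric acid cycle, complex I, hypoxia and mismatch repair lists had medians above 6.28 on all 6 arrays. Shares somewhat above 16.1% or 15.2% in such lists are thus no result either, and whether they exceed those of genes of like level was not tested. Of 22 Mullerian, ovarian and epithelial markers, 4 were higher in CP70 (18.2%) and 0 lower by limma (3 and 0 from replicate 2 alone), and the list's median difference was 0.08, against 0.01 over all genes. Before adjustment, at p under 0.05, 4 were higher and 1 was lower, and rank product called 2 higher and 0 lower. KRT18, a simple epithelial keratin, was at 9.78, 9.19 and 9.70 in CP70 and at 7.34, 7.82 and 7.97 in A2780. EPCAM, an epithelial adhesion molecule, rose by 0.88 ± 0.18. ESRP1, an epithelial splicing regulator, was at 8.46, 5.58 and 7.97 in CP70 and at 4.27, 4.34 and 4.24 in A2780, with replicate 2 nearer to A2780. PAX8, a Mullerian factor, had 7.16 to 7.39 in CP70 and 7.04 to 7.12 in A2780 and was not called, and the ovarian markers WT1 and MUC16 were under 4.34 on all 6 arrays. CDH1, E-cadherin, was also under 4.34 on all 6 arrays. VIM, the mesenchymal intermediate filament, was at 14.26, 14.31 and 14.30 in CP70 and at 14.19, 14.20 and 14.25 in A2780 and was not called. Of 18 mesenchymal markers, 6 were higher (33.3%) and 4 lower (22.2%), against 7 and 3 from replicate 2 alone, with TWIST2 up by 3.22 ± 0.18, FN1, fibronectin, by 2.56 ± 0.23, and CDH2, N-cadherin, down (−1.72 ± 0.12). The 12 leukocyte markers tested gave 0 calls by limma, 0 even before adjustment at p under 0.05, and 0 with rank product; from replicate 2 alone limma called 1 higher. Of 15 fibroblast, endothelial and muscle markers, 2 were higher (13.3%) and 4 lower (26.7%), as from replicate 2 alone. The proteoglycans DCN and LUM rose by 3.43 ± 0.17 and 2.89 ± 0.16, while the collagen chain COL1A2 and the smooth muscle actin ACTA2 changed by −2.48 ± 0.21 and −2.71 ± 0.24. Of 21 neural markers, 2 were higher (9.52%) and 4 lower (19.0%), with 3 and 3 from replicate 2 alone, and NEFL, a neurofilament chain, fell by 5.90 ± 0.18. PDGFRA had probe sets from −7.15 to −0.07, so its size of change is uncertain.

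Developmental transcription factors differed in both directions. Of 50 SOX, GATA, PAX and FOX factors, 14 were higher (28.0%) and 3 lower (6.0%; median difference 0.09), and 9 and 1 were called from replicate 2 alone. PAX9, a factor of tooth and vertebral development, was at 10.02, 9.76 and 9.97 in CP70 and at 3.9, 4.04 and 3.56 in A2780 (adjusted p = 4.61e-12). PAX2, a factor of kidney and Mullerian duct development, was at 3.63, 3.59 and 3.82 in CP70 and at 8.69, 9.36 and 9.20 in A2780 (adjusted p = 1.75e-12). PAX9 was thus high in CP70 and PAX2 in A2780, with no overlap of the arrays. FOXD1 rose by 4.18 ± 0.19, FOXF2 by 2.24 ± 0.19 and SOX7 by 1.5 ± 0.13. SOX8 was at 6.96, 8.15 and 7.0 in CP70 and at 3.59, 3.92 and 3.74 in A2780, with replicate 2 the highest CP70 array. Next to each other on chromosome 17, the homeobox genes HOXB5, HOXB6, HOXB7, HOXB8 and HOXB9, picked after their values were seen, all rose, by 2.66 ± 0.17, 4.27 ± 0.15, 4.96 ± 0.13, 2.89 ± 0.29 and 1.92 ± 0.23. HOXB7 was at 10.10, 10.08 and 10.21 in CP70 and at 4.99, 5.33 and 5.18 in A2780.

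Among 39 nuclear receptors, which turn hormones into transcription, 10 were higher (25.6%) and 4 lower (10.3%) in CP70, and 7 and 4 from replicate 2 alone. NR3C1, the glucocorticoid receptor, was at 10.24, 9.40 and 10.33 in CP70 and at 4.11, 4.20 and 4.07 in A2780, a rise of 58.1-fold (adjusted p = 9.98e-11), with 4 of its 5 probe sets called. RARB, a retinoic acid receptor, was at 10.20, 9.12 and 10.03 in CP70 and at 5.12, 5.14 and 4.17 in A2780. Replicate 2 was the lowest CP70 array for both. The thyroid hormone receptor THRB rose by 2.06 ± 0.15 and PPARG, a receptor of fat cell genes, by 1.01 ± 0.12. The orphan receptors ESRRG and NR6A1 changed by −1.97 ± 0.14 and −1.20 ± 0.09.

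Of 48 ligands of receptor tyrosine kinases, 12 were higher (25%) and 11 lower (22.9%) in CP70, with a median of −0.01. Of 55 receptors 9 were higher (16.4%) and 14 lower (25.5%), with a median of 0.01. From replicate 2 alone, 10 ligands were higher and 7 lower, and 7 receptors were higher and 13 lower. Without A2780 replicate 2 or 3, 5 receptors were higher. NRG1, the neuregulin that binds ERBB3 and ERBB4, was at 9.89, 8.42 and 9.5 in CP70 and at 4.15, 3.31 and 3.68 in A2780 (adjusted p = 1.24e-09). EREG, epiregulin, which binds EGFR and ERBB4, was at 9.15, 8.02 and 9.03 in CP70 and at 3.04, 3.46 and 3.31 in A2780 (adjusted p = 3.64e-09). Both ligands were at the low end of the scale in A2780 and lowest on replicate 2 within CP70. Their receptor ERBB4 went the other way, at 4.29, 3.84 and 3.84 in CP70 and at 7.83, 7.53 and 7.33 in A2780 (adjusted p = 1.6e-10), and 1 of its 4 probe sets was at 0.15. ERBB3 changed by −1.58 ± 0.16 with 2 of 5 probe sets called, EGFR by −0.44 ± 0.11 with 1 of 9, and ERBB2 was not called (−0.14 ± 0.15, adjusted p = 0.559), these 3 receptors having been picked after their values were seen. PDGFD, a platelet-derived growth factor, was at 4.15, 4.52 and 4.22 in CP70 and at 10.33, 10.07 and 10.28 in A2780, a fall of 61.0-fold. KITLG, the ligand of KIT, changed by −2.43 ± 0.20, FGF20 by −2.35 ± 0.20 and the ephrin EFNB2 by −2.05 ± 0.15. MET, the hepatocyte growth factor receptor, rose by 3.09 ± 0.18 with all 4 probe sets called. IGF1R, the insulin-like growth factor receptor, AXL, the GAS6 receptor, and the ephrin receptors EPHA7 and EPHA6 changed by −2.63 ± 0.16, −2.88 ± 0.20, −4.67 ± 0.13 and −2.27 ± 0.13.

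In the Notch pathway, ligands of the Delta and Jagged families on 1 cell activate NOTCH receptors on the next, and HES and HEY repressors are the usual targets. JAG1 was at 12.42, 11.87 and 12.52 in CP70 and at 5.52, 5.70 and 5.92 in A2780, a rise of 94.3-fold (adjusted p = 6.55e-11). Its 6 probe sets ranged from 0.11 to 6.63, with 4 called. The repressors HES1, HEY1 and HES4 rose by 3.08 ± 0.34, 2.71 ± 0.15 and 2.02 ± 0.25. HES1 was at 9.73, 8.15 and 9.95 in CP70 and at 6.23, 5.95 and 6.41 in A2780, with replicate 2 between the lines. The receptors NOTCH3, NOTCH1 and NOTCH2, named after their values were seen, changed by −2.20 ± 0.28, −0.50 ± 0.13 and −0.35 ± 0.13. Of 41 Notch and Hedgehog genes, 7 were higher (17.1%) and 9 lower (22.0%), with a median of −0.02, and 8 and 5 from replicate 2 alone. In the Hedgehog pathway GAS1, a co-receptor, rose by 4.07 ± 0.18, while the effector GLI2 changed by −1.22 ± 0.11.

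**Figure D3:**
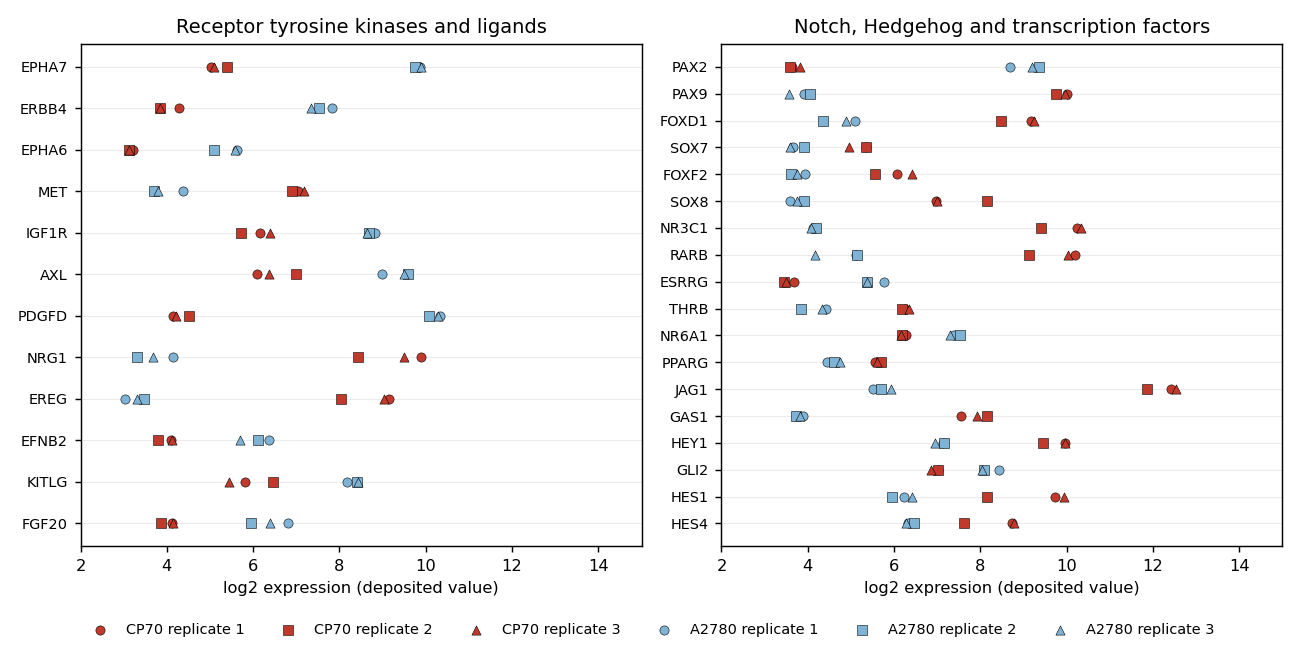
Deposited log2 level by array of receptor tyrosine kinases and their ligands (left) and of Notch, Hedgehog and transcription factor genes (right), with CP70 in red, A2780 in blue and replicates shown by marker. NRG1, EREG and JAG1 are high in CP70, ERBB4 and PDGFD are high in A2780, and PAX9 and PAX2 are high in opposite lines.

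Of 34 immediate early genes and feedback regulators of the MAP kinase pathway, 16 were higher (47.1%) and 6 lower (17.6%), with a median difference of 0.48, against 0.01 over all genes, and from replicate 2 alone 7 were higher and 3 lower. JUN, an AP-1 subunit, was at 9.81, 8.85 and 9.92 in CP70 and at 5.49, 5.77 and 5.57 in A2780, and its partner JUND rose by 0.69 ± 0.11. ERRFI1, a feedback inhibitor of EGFR, was at 11.38, 10.34 and 11.48 in CP70 and at 7.60, 8.20 and 8.31 in A2780. ETV1, an ETS transcription factor, rose by 1.24 ± 0.15, and DUSP2, a MAP kinase phosphatase, by 1.31 ± 0.17. DUSP6, a phosphatase of ERK, moved the other way, at 10.37, 10.01 and 10.44 in CP70 and at 12.07, 12.12 and 12.25 in A2780 (−1.88 ± 0.20).

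Among 55 genes of the TGF-beta and BMP pathways, 19 were higher (34.5%) and 14 lower (25.5%), with a median of 0.06, and 15 and 7 from replicate 2 alone. The ligands BMP5 and BMP7 rose by 3.60 ± 0.13 and 1.38 ± 0.13, while TGFB2 changed by −2.60 ± 0.24 and the receptor ACVR2B by −1.89 ± 0.11. TGFBI, a matrix protein induced by TGF-beta, rose by 3.12 ± 0.13, and FSTL1, a BMP-binding protein, changed by −2.22 ± 0.10. Of 54 Wnt genes, 8 were higher (14.8%) and 13 lower (24.1%), with a median of −0.01, and 5 and 8 from replicate 2 alone. WNT5A, a ligand of non-canonical signalling, rose by 2.28 ± 0.17 and its paralog WNT5B fell by 2.03 ± 0.16. The inhibitors DKK2 and DKK3 changed by 2.76 ± 0.23 and −2.29 ± 0.19, and the receptors FZD2 and FZD6 by −1.99 ± 0.19 and −2.14 ± 0.24. Of 39 Hippo pathway genes and YAP targets, 11 were higher (28.2%) and 13 lower (33.3%), and 9 and 10 from replicate 2 alone, with VGLL3, a TEAD cofactor, up by 3.18 ± 0.20 and RBMS3, an RNA-binding protein, changed by −2.94 ± 0.18.

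Of 47 semaphorins, plexins and other guidance cues, 8 were higher (17.0%) and 8 lower (17.0%), and 8 and 7 from replicate 2 alone. SEMA3A, a secreted repellent, was at 6.79, 6.40 and 6.71 in CP70 and at 10.80, 10.59 and 10.53 in A2780, while SLIT2, a ligand of ROBO receptors, was at 11.02, 10.76 and 11.06 in CP70 and at 8.46, 7.59 and 7.59 in A2780. Its receptor ROBO2 changed by −1.97 ± 0.10. Of 24 integrins, which bind cells to matrix, 4 were higher (16.7%; 3 from replicate 2 alone and 2 without CP70 replicate 1 or 3, or without A2780 replicate 1) and 0 lower by limma, while 1 was lower at p under 0.05 before adjustment and rank product called 0 lower. Without CP70 replicate 2 the lower count was 1 and without A2780 replicate 2 it was 2. ITGA6, a laminin receptor chain, rose by 1.48 ± 0.12, and ITGAV, at 13.32, 12.91 and 13.23 in CP70 and at 12.65, 12.68 and 12.79 in A2780, by 0.44 ± 0.13. ITGAV and ITGA5 lost their calls when single arrays were left out, to an adjusted p of 0.0783 and 0.2. Of 67 metalloproteases, their inhibitors and serpins, 19 were higher (28.4%) and 7 lower (10.4%), and 14 and 6 from replicate 2 alone. SERPINA3, an inhibitor of cathepsin G, was at 11.19, 10.93 and 11.54 in CP70 and at 4.86, 5.10 and 5.97 in A2780. SERPINE2, an inhibitor of thrombin and urokinase, rose by 4.95 ± 0.17, and MMP16, a membrane metalloprotease, by 3.03 ± 0.17.

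ALDH1A1, the cytosolic retinal dehydrogenase often used to mark stem-like tumour cells, was at 11.48, 11.16 and 11.58 in CP70 and at 5.41, 5.54 and 5.82 in A2780, a rise of 56.3-fold (adjusted p = 1.29e-13). In its list, ALDH1A1 included, 5 of 28 genes were higher (17.9%) and 6 lower (21.4%), with 2 and 2 from replicate 2 alone, and 3 higher without CP70 replicate 1 or 3 or A2780 replicate 3. AKR1C1 and AKR1C2, near-identical ketosteroid reductases whose probes may share signal, rose by 1.11 ± 0.21 and 0.92 ± 0.21, while mitochondrial ALDH2 changed by −1.30 ± 0.20. Among 22 selenoproteins, 6 were higher (27.3%) and 2 lower (9.09%), and 2 and 1 from replicate 2 alone. The higher count was 2 to 3 without CP70 replicate 1 or 3 or A2780 replicate 1 or 2, and the lower count 1 without CP70 replicate 3. GPX1 fell as given above, while GPX4, the peroxidase of membrane lipids, was at 12.50, 12.35 and 12.51 in CP70 and at 12.05, 12.19 and 12.29 in A2780 (0.27 ± 0.08), and it lost its call without 1 of 4 arrays in turn (largest adjusted p = 0.101). SEPHS2, which makes the selenium donor for selenocysteine, rose by 1.03 ± 0.19.

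Of 32 glycolysis and pentose phosphate genes, 16 were lower (50.0%) and 1 higher (3.12%), with a median difference of −0.44, and replicate 2 differed least: its median difference from A2780 was −0.11, against −0.42 and −0.57 for replicates 1 and 3. The lower count was 10 without CP70 replicate 3, 5 from replicate 2 alone, and 7 from the 6 arrays alone. PFKFB4, which makes the activator of phosphofructokinase, was at 6.39, 7.31 and 5.95 in CP70 and at 8.06, 8.65 and 8.86 in A2780 (−1.98 ± 0.28). SLC2A1, the main glucose transporter, changed by −0.57 ± 0.11, and PFKFB2 rose by 1.11 ± 0.19. Of 33 subunits of respiratory complex I, 16 were lower (48.5%) and 1 higher (3.03%), with a median of −0.34. From replicate 2 alone 3 were lower. The higher count was 0 without any of the 5 arrays other than CP70 replicate 2, and 2 without that array. NDUFB7 was at 7.77, 10.01 and 8.15 in CP70 and at 10.40, 10.60 and 10.61 in A2780, with replicate 2 close to A2780, while NDUFB4 was lower on all CP70 arrays (−0.80 ± 0.10). Of 33 citric acid cycle and glutamine genes, 8 were higher (24.2%) and 10 lower (30.3%). The lower count was 3 from the 6 arrays alone and 3 from replicate 2 alone, 17 with array weights, and the higher count from replicate 2 alone was 4. GLUL, glutamine synthetase, was at 5.17, 5.36 and 5.19 in CP70 and at 9.85, 10.22 and 10.37 in A2780, a fall of 30.0-fold (adjusted p = 1.89e-13), with 1 of 4 probe sets at 0.04. Of 26 hypoxia response genes, 10 were lower (38.5%) and 5 higher (19.2%), with a median of −0.34. From replicate 2 alone 4 were lower and 2 higher, and 2 were higher without CP70 replicate 1 or 3. ADM, the peptide adrenomedullin, rose by 1.84 ± 0.12. Of 23 genes of serine, one-carbon and asparagine synthesis, 8 were higher (34.8%) and 3 lower (13%). The higher count was 5 without CP70 replicate 1 or 3 and 1 from replicate 2 alone, and the lower count was 5 without replicate 2. CTH, which makes cysteine from cystathionine, was at 9.59, 7.55 and 9.43 in CP70 and at 6.38, 6.13 and 6.51 in A2780.

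Of 48 potassium channels, 8 were higher (16.7%) and 6 lower (12.5%), and 3 lower without A2780 replicate 2 or from CP70 replicate 2 alone. KCNMA1, the large-conductance channel opened by calcium, was at 4.14, 3.96 and 4.05 in CP70 and at 9.55, 9.37 and 9.72 in A2780, a fall of 45.2-fold (adjusted p = 1.54e-14). KCNJ2, an inward rectifier, was at 10.98, 10.27 and 11.07 in CP70 and at 6.0, 5.59 and 5.85 in A2780. Of 40 cytosolic ribosomal protein genes, 1 was higher (2.5%) and 4 lower (10.0%), and 2 were lower without CP70 replicate 1 or 3 or from replicate 2 alone. RPL22 changed by −0.43 ± 0.07 and RPS12 rose by 0.41 ± 0.08, and RPS10 had 1 probe set higher and 3 lower.

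Genes that handle cisplatin and its adducts were described whether or not they were called. SLC31A1, the copper transporter through which cisplatin can enter, was at 10.76, 9.64 and 10.66 in CP70 and at 9.16, 9.06 and 9.0 in A2780, a rise of 1.28 ± 0.23 (adjusted p = 0.00046). From replicate 2 alone its adjusted p was 0.0558. ABCB1, a drug efflux pump for which cisplatin is a poor substrate, was at 4.01, 3.68 and 4.06 in CP70 and at 3.49, 3.39 and 3.28 in A2780, at the low end of the scale. ERCC1, a nuclease subunit of nucleotide excision repair, BRCA1, of recombination repair, and SLFN11, linked to death after replication damage, were not called, with differences of 0.10 ± 0.13, 0.04 ± 0.13 and 0.09 ± 0.09. ARID1A, a chromatin remodelling subunit, lay at 10.64, 10.35 and 10.55 in CP70 and at 10.24, 10.05 and 10.04 in A2780 without reaching the threshold (adjusted p = 0.0573). Of 15 tested genes of mismatch repair and adduct tolerance, 3 were higher (20%) and 5 lower (33.3%), and 3 were lower without CP70 replicate 1 or 3. From replicate 2 alone limma called 2 higher and 0 lower. The list's median difference from A2780 was −0.21, 0.07 and −0.23 in CP70 replicates 1 to 3, so that replicate 2 had the opposite sign. The same signs were seen in genes above the median level on chromosomes other than 1, 6 and 13. Their medians were −0.07, 0.05 and −0.05. REV3L, the catalytic subunit of translesion polymerase zeta, was at 9.43, 9.36 and 9.42 in CP70 and at 8.08, 8.28 and 8.28 in A2780 (1.19 ± 0.15, adjusted p = 2.54e-05). SHPRH, a ubiquitin ligase of the replication clamp, rose by 1.03 ± 0.14, while HLTF, a relative with the same substrate, changed by −0.56 ± 0.11. RAD18, which starts ubiquitination of the clamp, changed by −0.49 ± 0.11. MSH6, a mismatch sensor, was at 10.34, 11.25 and 10.46 in CP70 and at 11.35, 11.45 and 11.33 in A2780, and it lost its call without CP70 replicate 1 (adjusted p = 0.0562).

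**Figure D4:**
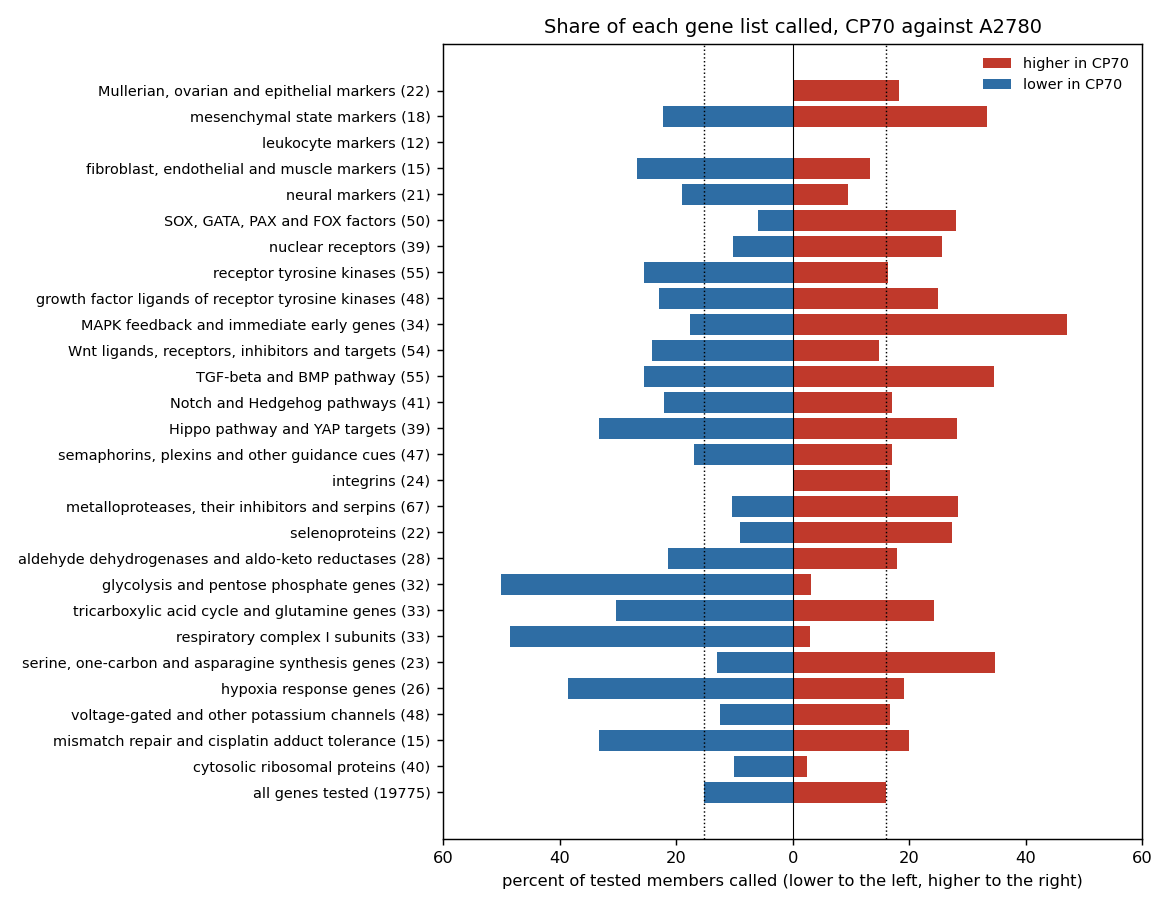
Percent of the tested members of each gene list called higher (right, red) or lower (left, blue) in CP70, with the number tested in brackets and the shares over all 19775 genes at the bottom and as dotted lines. The bars for glycolysis and complex I reach far to the left, and that for MAP kinase feedback and immediate early genes far to the right. The dotted lines are not matched for the expression level of a list.

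Both REV3L and SHPRH lie in the distal part of chromosome 6, where neighbouring genes were higher together. All tested genes were put in RefSeq order along each chromosome and cut into blocks of 50. From block 16 of chromosome 6 to its end, 148 of 339 genes were higher (43.7%) and 11 lower (3.24%). Of the 143 of them above the median level, 111 were higher, and their median lay 0.91, 0.97 and 0.94 above the A2780 mean in CP70 replicates 1 to 3 and −0.03, 0.00 and 0.04 from it in the A2780 arrays. Replicate 2 thus did not stand apart here. In blocks 1 to 15 of chromosome 6 the median difference of such genes was 0.04, and on chromosomes other than 1, 6 and 13 it was −0.03. MARCKS, an actin-binding substrate of protein kinase C, was at 11.55, 11.39 and 11.74 in CP70 and at 6.0, 6.0 and 6.41 in A2780. RAB32, a GTPase of melanosome traffic, rose by 2.02 ± 0.09, IFNGR1, a chain of the interferon gamma receptor, by 2.01 ± 0.13, LRP11 by 1.87 ± 0.11, SNX9, of endocytosis, by 1.65 ± 0.11, and LATS1, a Hippo kinase, by 1.64 ± 0.16. PTPRK, among the largest rises, lies in the same stretch.

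Stretches of chromosomes 13 and 1 were lower together. On chromosome 13, from block 4 to the end, 78 of 251 genes were lower (31.1%) and 12 higher (4.78%), and the 93 above the median level had medians of −0.70, −0.67 and −0.76 in CP70 replicates 1 to 3, while the A2780 arrays were between 0.00 and 0.01. TDRD3, a Tudor domain protein, changed by −2.44 ± 0.14, CHAMP1, a kinetochore protein, by −1.17 ± 0.10, and RAP2A, a small GTPase, by −1.26 ± 0.10. IRS2, an insulin receptor substrate, was at 7.70, 5.91 and 7.74 in CP70 and at 11.24, 11.26 and 11.25 in A2780. PCDH9, a protocadherin, went against its neighbours and rose by 2.23 ± 0.17. On chromosome 1, from block 36 to the end, 57 of 176 genes were lower (32.4%) and 9 higher, with medians of −0.52, −0.39 and −0.56 for the 87 above the median level. C1orf198 changed by −1.79 ± 0.10, NID1, a basement membrane nidogen, by −1.51 ± 0.12, and HEATR1, of ribosome assembly, by −0.91 ± 0.10. Of 396 blocks in the genome with at least 10 genes above the median level, 8 had a median of at least 0.6, 7 of them on chromosome 6. A median of −0.6 or lower was found in 6 blocks, 4 on chromosome 13 and 2 on chromosome 1. These stretches and their genes were chosen after the values were seen and carry no test, and DNA copy number was not measured.

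**Figure D5:**
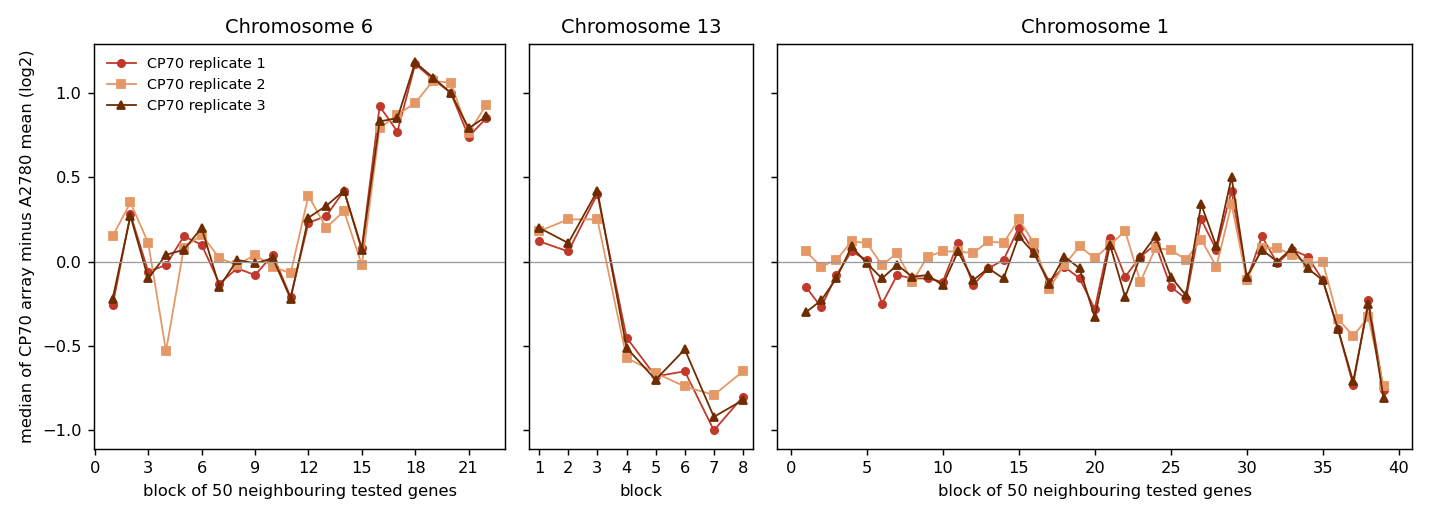
Median difference of each CP70 array from the A2780 mean (log2) in blocks of 50 neighbouring tested genes along chromosomes 6, 13 and 1, over genes above the median level, for blocks with at least 10 such genes. The 3 replicates step up together in distal chromosome 6 and down in distal chromosome 13 and at the end of chromosome 1.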

How the data were processed

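RNA was extracted with Qiagen columns, amplified (NuGEN WT-Ovation Pico) and labelled with biotin according to the protocols in the labels. The table the authors deposited gives log2 values of 54675 probe sets for 15 arrays. R 2.10.1 and affy are named in the submitters' processing notes, and the normalization is not given in the sources used here. Array medians were 5.0 to 5.06. Arrays carry no depth, and their number limits the precision.

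The 41091 probe sets with 1 gene symbol (1801 had several and 11721 none in the table used here) gave 19775 genes, taking for a gene the probe set whose mean was highest. Symbols were updated through Entrez IDs, which matched 41037 probe sets. The 62 control probe sets were left out. limma 3.58.1 (R 4.3.3) was fitted with lmFit and eBayes to these values from 15 arrays in 5 groups, and the contrast was CP70 minus A2780. On simulated data over the 19775 genes, 89 of 100 genes changed by 1 log2 and 98 of 100 changed by 2 log2 were recovered, with 11 false calls. The simulated noise was independent between genes and few genes were changed, unlike in these data. It therefore cannot show how an array that departs from its partners across many genes, as CP70 replicate 2 did, affects the calls. Rank product used 9 pairwise differences and 100 permutations at 5% false positives. Python 3.11.15 with pandas 2.3.3 and numpy 2.4.6 made the summaries. Promoters and gene order came from RefSeq GRCh38.p14.

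The members, the 27 gene lists (1002 genes, 88 of them not tested) and the tests were chosen with earlier results of these data known. The genes named are the 15 that rose most and the 15 that fell most without overlap of the arrays, per list the 6 members at most with the lowest p, genes of cisplatin response, and the 8 genes with replicate 2 farthest above and 8 farthest below its partners. Other named genes were picked after their values were seen. Some genes were not analysed here. The alternatives were the 6 arrays alone, a replicate block, genes above the median level, the mean or all of a gene's probe sets, array weights, repeated quantile normalization, median centring, a 2-fold minimum, rank product, CP70 replicate 2 alone, and leaving out each array.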

Additional observations from a re-analysis of the deposited data

How the results depend on the processing

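The main counts were 3174 genes higher and 3000 lower in CP70. They moved by over 1.5 times to 5015 and 5147 with array weights, to 5662 and 5777 probe sets when every probe set was tested, to 1017 and 912 with a 2-fold minimum, to 543 and 502 by rank product, and to 1912 and 1457 with CP70 replicate 2 alone. They were 2408 and 2005 from the 6 arrays alone, 2596 and 2391 for genes above the median level, 3059 and 3051 with the mean of probe sets, 3068 and 3174 after repeated quantile normalization and 2926 and 3329 after median centring. Leaving out 1 array at a time gave 2518 to 3637 higher and 2183 to 3908 lower. With the replicate number as a block, 3022 were higher and 2820 lower. Deviations of same-numbered arrays correlated at 0.054, 0.105 and 0.098, which was not over 0.1 in every pair, so the block was not the main design. Every array correlated best with its own number, a hint of pairing from the data and not from the design. Of the 202 named genes, 4 reversed from CP70 replicate 2 alone, with differences of 0.065 for RAB26, 0.129 for SKP2, 0.015 for DSCC1 and −0.008 for ITGA5, and 37 lost their call. RPL38 reversed to 0.204 with the mean of its probe sets. The cause of these changes was not tested. The number of arrays and the low end of the scale limit small differences and weakly expressed genes.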
